A study of Mus musculus with 36 samples.

Results

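The 39 genes described here build, or control, the contractile actin cytoskeleton of smooth muscle and of the myofibroblast, the contractile state of a fibroblast. They were taken by gene symbol from a fixed list of smooth muscle genes, targets of serum response factor (SRF) and actin-binding proteins. All 39 were found among the 55487 genes of the count table, and all 39 were among the 15489 genes with enough counts to be tested. RNA-seq was made from primary mouse embryonic fibroblasts (MEFs) given dexamethasone (Dex, a synthetic glucocorticoid) at 1 µM or vehicle for 5 h. Per the study, each genotype had 3 cultures, each from a different mouse. Besides GRwt/wt, the cells were homozygous for 1 of 4 alleles of the glucocorticoid receptor gene Nr3c1. GRD/D carries a point mutation in the dimer interface of the DNA-binding domain, GRL/L carries a point mutation in the dimer interface of the ligand-binding domain, GRD+L/D+L carries both, and GRko/ko lacks a functional receptor gene. The experiment was done in 2 parts, labelled run 1 and run 2. Run 1 held GRwt/wt, GRD/D, GRD+L/D+L and GRko/ko, and run 2 held GRL/L with another set of GRwt/wt. Each of the 12 groups held 3 libraries, and every genotype was compared with GRwt/wt of its own run. All mice are labelled FVB/NJ. For the parents of GRko/ko the study's methods name another strain, so that strain and genotype may not be separable there.

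Smooth muscle contracts when myosin II, switched on by phosphorylation of its light chain, pulls on filaments of smooth muscle actin. Many genes of this machinery carry CArG boxes, short A/T-rich elements bound by SRF. SRF acts with the coactivator myocardin (Myocd) in smooth muscle and with the myocardin-related factors (MRTF) in fibroblasts, where actin polymerisation brings MRTF into the nucleus. Fibroblasts that turn into myofibroblasts raise smooth muscle actin (Acta2), transgelin (Tagln) and calponin (Cnn1). The glucocorticoid receptor is a transcription factor that binds palindromic elements on DNA as a dimer and also acts through other factors.

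Levels are given as CPM, the counts of a gene relative to its library's total, with library sizes scaled between libraries. Differences are log2 fold changes from one model over all 36 libraries (edgeR's quasi-likelihood test) with their standard error (SE), and a gene was called at a Benjamini-Hochberg adjusted p of at most 0.05 over all genes tested, with no limit on the fold. Library totals lay between 15280166 and 28662608 counts, and every member but 3 had at least 280 counts in every library. The 3 exceptions were Myocd, Synpo2 and Myh11, with lowest counts of 12, 60 and 68.

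Nr3c1 was lower in GRko/ko, as its label says. It stood at 67.2, 69.2 and 74.3 CPM in GRwt/wt vehicle run 1 and at 16.1, 17.97 and 15.9 CPM in GRko/ko vehicle (log2 fold change -2.08). Counts per gene do not check the point mutations. In vehicle Nr3c1 was higher in GRD+L/D+L than in GRwt/wt (0.47, adjusted p = 2.2e-07) and was not called in GRD/D or GRL/L. The 10 fibroblast markers were found in every group, at a summed 36830 to 53220 CPM in vehicle. Xist and 4 Y-linked genes gave the female pattern in all libraries of GRwt/wt run 1 and GRD/D (Xist at least 165.0 CPM, the 4 Y genes together at most 2.07 CPM). All libraries of GRD+L/D+L, GRko/ko, GRwt/wt run 2 and GRL/L carried the Y genes, at a summed 136 to 283 CPM, with Xist at no more than 14.1 CPM. Sex therefore cannot be told apart from genotype in the comparisons of GRD+L/D+L and GRko/ko with GRwt/wt, nor from run in the comparison of the GRwt/wt sets. It does not differ in the comparisons of GRD/D and GRL/L, nor in any Dex response. Within each genotype and run all libraries had the same sex pattern. The counts do not show whether the libraries of a group come from different mice, as the study states. If they share a culture, the SE and p-values of the vehicle comparisons, Dex responses and differences in response measure the spread within it. Fhl1 and Flna lie on the X chromosome.

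CArG boxes were searched in the promoter windows that RefSeq gives for 33 of the 39 genes (build GRCm38.p6, which is mm10, 250 bases before to 50 bases after each start), on both strands. A box was taken as a pair of C bases, a stretch of A or T and a pair of G bases. Of the 43 windows of these genes, 10 held a box, in 9 genes, against 535 of all 32817 promoter windows (1.63%). Targets of SRF were part of how the 39 genes were chosen, so this larger share follows from the list and is no separate result. The 60 bases around each are given 5′ to 3′ on the strand of the gene, because they set Srf beside other listed genes with a match. The capitals mark the boxes, of which Srf has 2.
Actg1, chr11:120348551-120348610, minus strand: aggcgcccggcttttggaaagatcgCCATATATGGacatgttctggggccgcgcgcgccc
Srf, chr17:46556200-46556259, minus strand: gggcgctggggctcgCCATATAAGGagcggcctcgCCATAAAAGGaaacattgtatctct
Fhl1, chrX:56779556-56779615, plus strand: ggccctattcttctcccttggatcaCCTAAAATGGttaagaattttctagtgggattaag
Fhl2, chr1:43196823-43196882, minus strand: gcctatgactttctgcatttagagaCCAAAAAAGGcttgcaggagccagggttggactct
Fhl2, chr1:43163962-43164021, minus strand: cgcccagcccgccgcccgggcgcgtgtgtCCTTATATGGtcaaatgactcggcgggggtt
Filip1l, chr16:57549155-57549214, plus strand: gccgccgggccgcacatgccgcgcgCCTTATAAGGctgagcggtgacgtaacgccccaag
Myl6, chr10:128493025-128493084, minus strand: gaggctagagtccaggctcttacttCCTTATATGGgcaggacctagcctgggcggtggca
Myl9, chr2:156775278-156775337, plus strand: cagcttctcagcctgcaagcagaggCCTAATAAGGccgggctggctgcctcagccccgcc
Cnn2, chr10:79988519-79988578, plus strand: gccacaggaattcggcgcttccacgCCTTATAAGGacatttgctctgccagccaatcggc
Vcl, chr14:20929148-20929207, plus strand: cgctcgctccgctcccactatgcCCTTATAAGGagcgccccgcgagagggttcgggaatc
The boxes started between 31 bases (Fhl2) and 227 bases (Vcl) before the start. Tagln, Actg2, Actb, Myh11, Myocd and Tgfb1i1 had no window. The palindromic glucocorticoid response element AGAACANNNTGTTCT was in no window of these genes and in 3 windows of all genes (0.009%). A match is a description of these letters and does not show binding.

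In GRwt/wt vehicle run 1, the untreated fibroblast, Acta2 had the highest level per kilobase of exon of all 39, 3229.9 ± 114 CPM per kb (SD, n = 3). Cytoplasmic β-actin (Actb) followed at 2252 ± 46.5, Tagln at 1919 ± 73.5, the regulatory light chain Myl9 at 686 ± 33.4 and filamin A (Flna), which cross-links actin, at 577 ± 43.1 CPM per kb. The first 3 were separated by more than their SD. The smooth muscle myosin heavy chain Myh11 stood at 9.50 ± 0.571 CPM per kb, desmin (Des) at 6.71 ± 0.761 and myosin light chain kinase (Mylk) at 1.78 ± 0.0899. Synaptopodin 2 (Synpo2), 1.26 ± 0.0831, and Myocd, 0.280 ± 0.0395 CPM per kb, were lowest. Actins and transgelin were thus abundant in these cells, and the myosin heavy chain and coactivator of mature smooth muscle were measured at low levels. The levels of Actg1 and Tpm3 are uncertain, since 55.9% and 62.4% of their exonic 50-base windows also occur in other genes.

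Whether the runs can be compared was addressed with GRwt/wt, the genotype present in both. In vehicle, 36 of the 39 genes were lower in run 2 than in run 1 and 1 was higher, where 32.2% of all genes tested were lower and 40.2% higher. The median log2 difference was -1.09 for the 39 genes and 0.09 for all genes, and 22 of the 39 were lower by at least 2-fold. Acta2 was at 7235, 6804 and 7239.6 CPM in run 1 and at 1697, 1812 and 1735 CPM in run 2 (log2 difference -2.02 ± 0.05, adjusted p = 3.0e-28). Tagln, which binds actin filaments, was at 3976, 3689.8 and 3779 CPM against 1002, 1016 and 994 CPM (-1.93 ± 0.06). For both genes the runs lay far outside each other's spread.

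Some of the other smooth muscle genes differed more than Acta2 and some less. The run 1 mean over the run 2 mean was 4.06 for Acta2 and 4.56 for leiomodin 1 (Lmod1). It was 2.95 for Synpo2, 1.63 for caldesmon (Cald1), 1.44 for smoothelin (Smtn) and 1.39 for Des. Myh11 was at 73.1, 67.5 and 76.03 CPM in run 1 and at 3.46, 3.46 and 3.01 CPM in run 2 (-4.44 ± 0.11). The enteric smooth muscle actin Actg2 was at 335, 323 and 332 against 26.7, 27.3 and 25.8 CPM (-3.63 ± 0.06, adjusted p = 8.9e-33), and Cnn1, which restrains myosin on actin, at 306, 272 and 300.2 against 23.9, 24.00 and 23.6 CPM (-3.62 ± 0.07, adjusted p = 9.5e-32). The LIM protein Fhl1 was at 298, 276 and 297 against 45.4, 42.8 and 39.03 CPM (-2.77 ± 0.06, adjusted p = 1.6e-30). These 4 differed most of the 39. Srf, the factor common to many of them, was lower in run 2 (-1.63 ± 0.06), at 162, 159.9 and 162 CPM in run 1 and 48.9, 48.4 and 59.3 CPM in run 2. Mylk was the 1 gene that was higher in run 2, 40.4, 37.7 and 35.5 CPM against 20.05, 21.03 and 19.01 CPM (0.92 ± 0.07). Myocd (-0.63 ± 0.31, adjusted p = 0.066) and the acidic calponin Cnn3 (-0.04 ± 0.04) were not called.

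**Figure D1:**
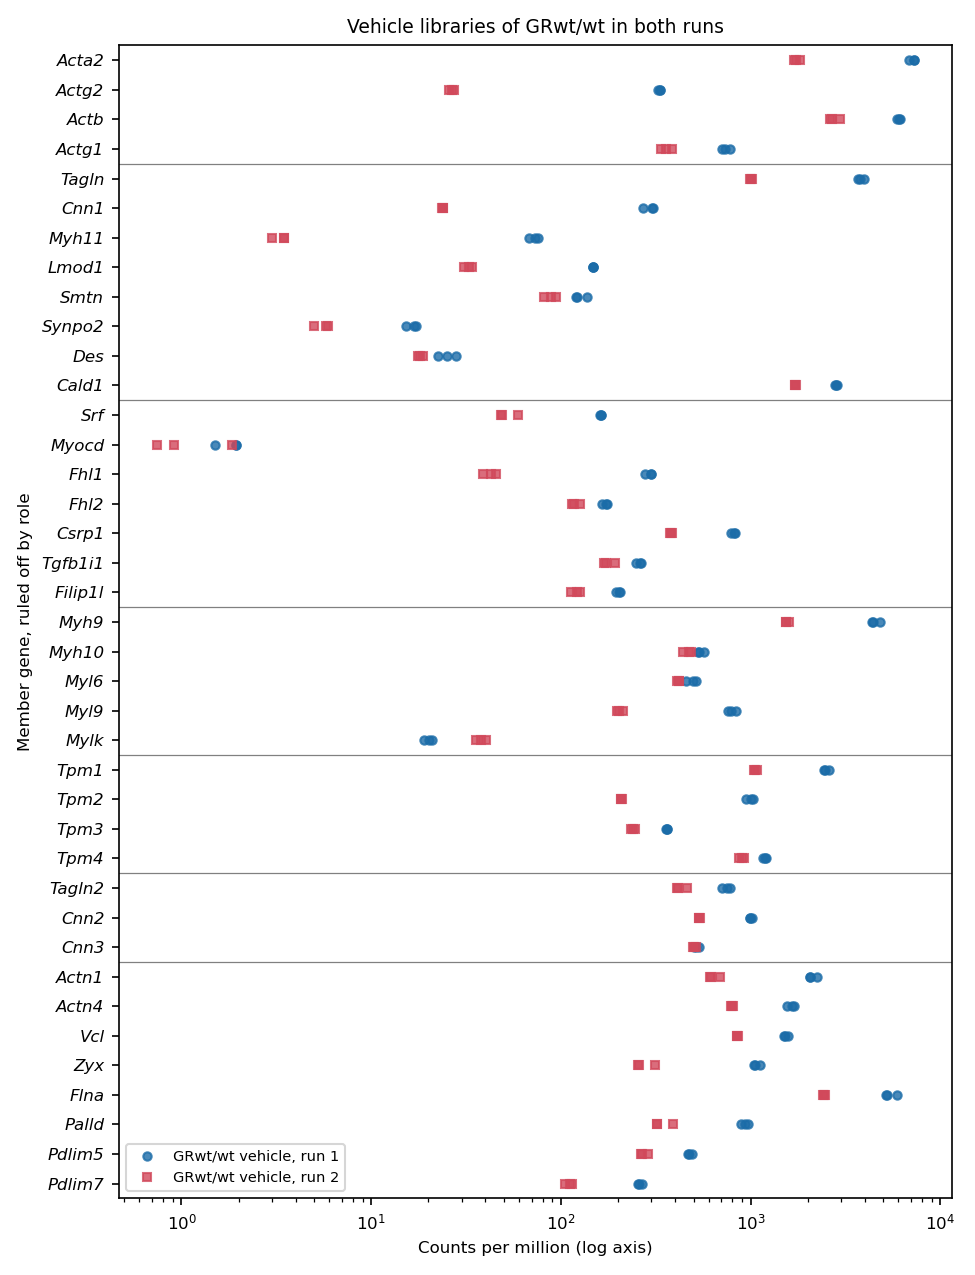
Level of each of the 39 genes (down the axis, by role) in every GRwt/wt vehicle library, as CPM on a log axis. Each point is 1 library (n = 3 per run), and colour marks run 1 and run 2. For most genes the run 2 points lie at lower CPM than the run 1 points. The gap is widest for Myh11, Actg2 and Cnn1, and Mylk lies the other way round.

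The separation held in every group. For 32 of the 39 genes, all 12 libraries of run 2 lay below all 24 libraries of run 1, against 14.6% of all genes tested; 0 of the 39 had all run 2 libraries above run 1, against 16.8% of all genes. In vehicle, the 39 genes took 4.48% to 4.96% of all counts in run 1 and 2.09% to 2.35% in run 2. The 9 genes with a box in their promoter window were all lower in run 2, as were 27 of the other 30. Among these 30 are the genes with no window here, and Acta2, whose window held no exact match. Inexact matches were not searched, so this does not show that Acta2 lacks an SRF element. Of the 5 mural markers (smooth muscle or pericyte) outside the list, 3 were lower and 2 higher in run 2, with a summed level of 687 to 747 CPM in run 1 and 180.2 to 209 CPM in run 2, and 0 of the 5 were at 0. The 12 macrophage markers summed to 214 to 378 CPM in run 1 and 516 to 546 CPM in run 2, with 9 of 12 higher. The 7 cartilage markers summed to 19.0 to 21.1 CPM in run 1 and 61.7 to 77.2 CPM in run 2, with all 5 that were tested higher. Of the 4 epithelial markers the 2 tested were higher, with a summed 0.260 to 0.548 CPM in run 1 and 2.15 to 47.3 CPM in run 2. The 10 skeletal muscle markers, nearly all of their sum in run 1 being the skeletal actin Acta1, summed to 648 to 756 CPM in run 1 and 12.1 to 13.7 CPM in run 2, with 6 of the 7 tested higher and Acta1 lower. Their part in the difference was not tested. In bulk RNA, fewer contractile cells and less RNA per cell cannot be told apart, and neither can run, culture and sex here. All comparisons below therefore stay within a run.

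The vehicle levels of the mutants address whether the receptor alleles changed the contractile state of the untreated fibroblast. GRD/D, GRD+L/D+L and GRko/ko were set against the same GRwt/wt libraries of run 1, so that their differences share those values, and GRL/L was set against GRwt/wt of run 2. In GRD/D, 4 of the 39 genes were higher and 2 lower, where 5.66% of all genes were higher and 3.89% lower. In GRL/L, 1 was higher and 13 lower (6.88% and 4.47% of all genes). In GRD+L/D+L, 12 were higher and 6 lower (13.9% and 15.9%), and in GRko/ko 9 were higher and 19 lower (24.4% and 21.3%). The median log2 differences of the 39 genes were -0.05, -0.11, 0.04 and -0.14, with medians between -0.01 and 0.01 over all genes.

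**Figure D2:**
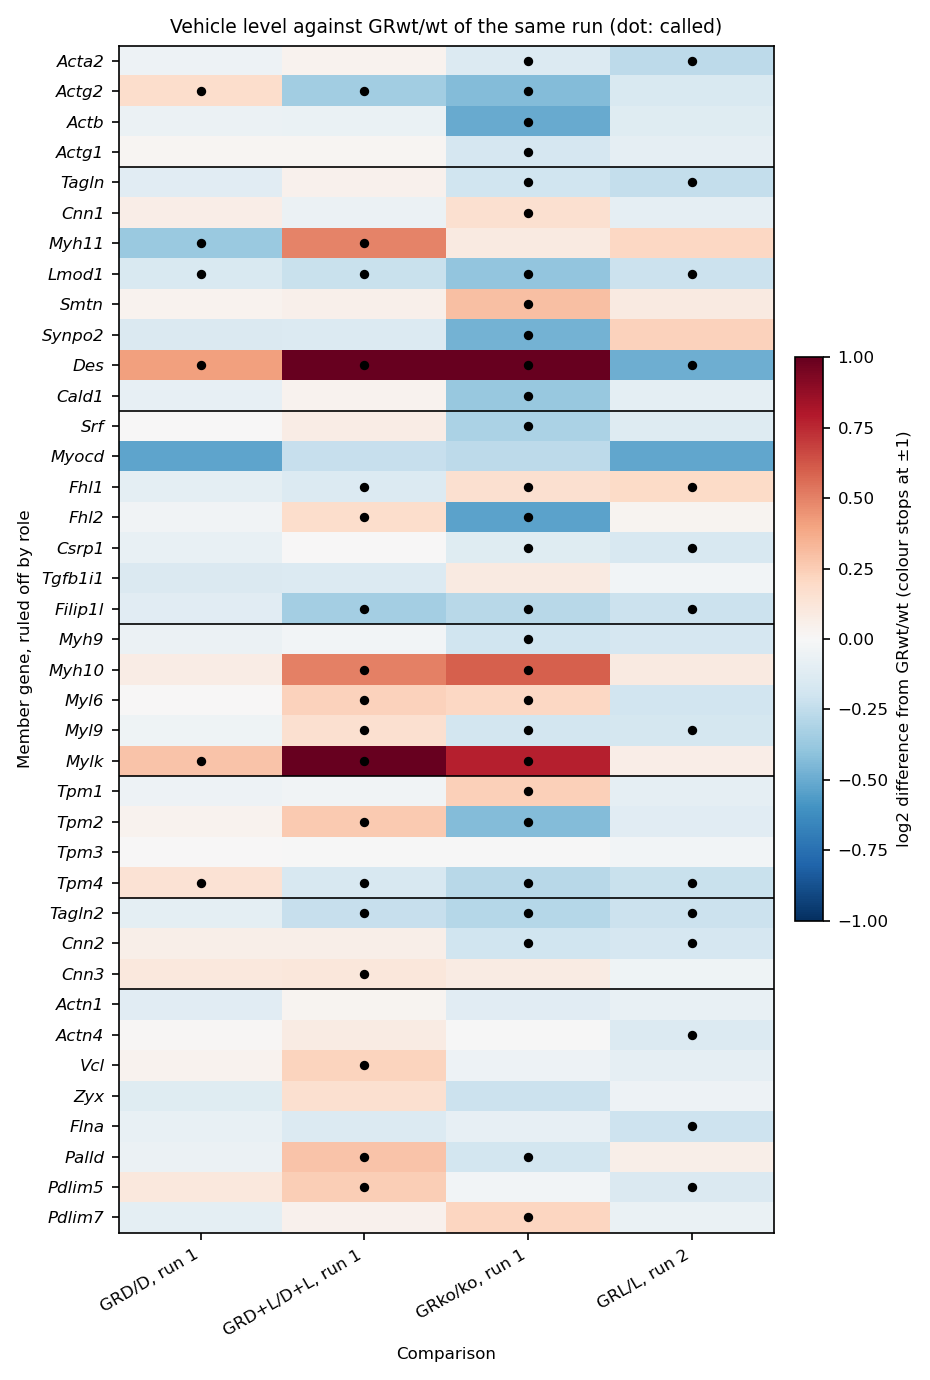
Log2 difference in vehicle level of each of the 39 genes (down the axis, by role) between each mutant and GRwt/wt of its run (across), in colour that stops at 1 and -1. A dot shows a gene called at an adjusted p of at most 0.05. Des and Mylk stand out as higher in GRD+L/D+L and GRko/ko, and Lmod1 is lower in all 4 mutants.

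Among the actins, Acta2 was lower in GRL/L and in GRko/ko. It was at 1439, 1464 and 1464 CPM in GRL/L against 1697, 1812 and 1735 CPM in GRwt/wt run 2 (log2 fold change -0.26 ± 0.05 (SE), adjusted p = 1.8e-04), and at 6558, 6403 and 6345 CPM in GRko/ko, below all 3 libraries of GRwt/wt run 1 (-0.14 ± 0.05, adjusted p = 0.017), a call lost without GRwt/wt replicate 1 or 3. In GRD/D it was at 6809, 7342 and 6429 CPM and in GRD+L/D+L at 7131, 7309 and 7401 CPM, both overlapping GRwt/wt. These differences were small beside that between the runs. Actg2 was at 372, 403 and 344 CPM in GRD/D, above GRwt/wt (0.18 ± 0.05, adjusted p = 0.029), and at 253, 259 and 265 CPM in GRD+L/D+L and 245, 243 and 244 CPM in GRko/ko, below it (-0.35 and -0.43). In GRL/L it was at 23.1, 23.98 and 24.6 CPM, and the difference of -0.15 was not called. Actb (-0.51 ± 0.05) and cytoplasmic γ-actin, Actg1 (-0.17 ± 0.04), were lower in GRko/ko and not called in the other mutants.

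Desmin, the muscle intermediate filament protein, showed the largest difference of the smooth muscle markers. Des was at 25.04, 28.1 and 22.4 CPM in GRwt/wt run 1, 33.6, 34.7 and 31.9 CPM in GRD/D, 128, 140.1 and 122 CPM in GRD+L/D+L and 65.3, 66.5 and 67.4 CPM in GRko/ko. All 3 mutants lay above GRwt/wt without overlap, by 0.41 ± 0.08 (adjusted p = 7.5e-04), 2.37 ± 0.08 (adjusted p = 2.3e-23) and 1.40 ± 0.08 (adjusted p = 1.9e-17) on the log2 scale. In GRL/L it was instead lower than in GRwt/wt run 2, 12.98, 13.3 and 12.5 against 17.6, 18.7 and 18.05 CPM (-0.49 ± 0.08, adjusted p = 7.6e-05).

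Tagln was lower in GRL/L, 841, 865 and 849.9 CPM (-0.24 ± 0.06, adjusted p = 0.0091), and in GRko/ko, 3426, 3261 and 3257 CPM (-0.20 ± 0.06, adjusted p = 0.0073). It was not called in GRD/D, 3707, 3875 and 3013 CPM, or in GRD+L/D+L, 3836, 3968 and 3999.5 CPM. An antisense gene overlaps 62.4% of its exonic bases, and since the strand setting of the counting is not given in the sources used here, their reads cannot be told apart. Cnn1 was at 339, 321 and 325 CPM in GRko/ko, slightly above GRwt/wt (0.16 ± 0.06, adjusted p = 0.02). The study's design, fitted here with edgeR, did not make this call. The values of 318, 325 and 276 CPM in GRD/D, 285, 279 and 281 CPM in GRD+L/D+L and 22.3, 22.2 and 22.6 CPM in GRL/L were not called. Myh11 was at 54.4, 55.7 and 57.6 CPM in GRD/D, below GRwt/wt (-0.37 ± 0.08, adjusted p = 0.0012), and at 102, 101 and 102 CPM in GRD+L/D+L, above it (0.49 ± 0.08, adjusted p = 3.0e-06). In GRko/ko, 74.7, 81.01 and 74.97 CPM, and in GRL/L, 3.99, 4.27 and 3.20 CPM, it overlapped GRwt/wt. The smooth muscle markers thus did not move as a block in any mutant.

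Leiomodin 1 (Lmod1), which nucleates actin filaments in smooth muscle, was the 1 gene called lower in all 4 mutants. It was at 148, 148 and 148 CPM in GRwt/wt run 1, 133, 128 and 139.97 CPM in GRD/D, 128, 127 and 127 CPM in GRD+L/D+L and 117, 115 and 107 CPM in GRko/ko, and at 28.1, 27.2 and 28.6 CPM in GRL/L against 30.8, 32.9 and 33.9 CPM in GRwt/wt run 2. The log2 differences were -0.15 (adjusted p = 0.039), -0.22, -0.39 and -0.22, with GRko/ko the lowest. The call in GRD/D was lost in 3 of the other fits, among them the one with only the groups compared. Smoothelin (Smtn), a marker of contractile smooth muscle, was higher in GRko/ko (0.30), while Synpo2 (-0.47) and caldesmon (Cald1, -0.38) were lower there. None of these 3 was called in the other mutants.

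Of the regulators, Myocd was called in no mutant in vehicle, at levels of 0.664 to 1.95 CPM and few counts. Srf was lower in GRko/ko, 127, 126 and 137 CPM (-0.31 ± 0.06, adjusted p = 1.4e-05), and was not called in GRD/D, 170.1, 152 and 164 CPM, in GRD+L/D+L, 162, 170.1 and 177 CPM, or in GRL/L, 49.9, 47.9 and 45.7 CPM. Fhl2, a LIM protein that binds SRF, was at 114, 119 and 121 CPM in GRko/ko against 165, 175 and 173 CPM in GRwt/wt (-0.53 ± 0.05, adjusted p = 2.8e-12). It was higher in GRD+L/D+L, at 188, 191 and 200.2 CPM (0.18). Fhl1 was higher in GRko/ko (0.16) and GRL/L (0.19) and lower in GRD+L/D+L (-0.14). Filip1l, a relative of a filamin-interacting protein, was lower in GRL/L, GRD+L/D+L and GRko/ko (-0.22, -0.34 and -0.28), and the LIM protein Csrp1 was lower in GRL/L and GRko/ko (-0.16 and -0.12). Tgfb1i1 (Hic-5), a focal adhesion LIM protein, was called in no mutant.

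The myosin group differed most in GRD+L/D+L and GRko/ko. Mylk, the kinase that phosphorylates the myosin light chain, was at 20.05, 21.03 and 19.01 CPM in GRwt/wt run 1, 26.4, 22.1 and 24.8 CPM in GRD/D, 48.04, 45.3 and 42.9 CPM in GRD+L/D+L and 32.9, 34.8 and 35.3 CPM in GRko/ko. The 3 mutants lay above GRwt/wt, by 0.28 ± 0.08 (adjusted p = 0.011), 1.18 ± 0.07 (adjusted p = 1.3e-15) and 0.78 ± 0.07 on the log2 scale, and GRL/L overlapped GRwt/wt run 2. Non-muscle myosin IIB (Myh10) was at 527, 533 and 568 CPM in GRwt/wt, 776, 781 and 748 CPM in GRD+L/D+L (0.50 ± 0.05, adjusted p = 3.7e-09) and 803, 841 and 816 CPM in GRko/ko (0.59 ± 0.05, adjusted p = 1.6e-11). These were shifts of the whole group of 3 libraries, with no overlap. The essential light chain Myl6 was higher in both (0.23 and 0.20). Myl9 was higher in GRD+L/D+L (0.16) and lower in GRL/L and GRko/ko (-0.17 and -0.18), and non-muscle myosin IIA (Myh9) was lower in GRko/ko (-0.20).

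Of the tropomyosins, which lie along the actin filament, Tpm4 was at 761, 774 and 773 CPM in GRL/L against 870.5, 897 and 923 CPM in GRwt/wt run 2 (-0.22 ± 0.04, adjusted p = 4.9e-04). It was also lower in GRD+L/D+L and GRko/ko (-0.16 and -0.28) and higher in GRD/D (0.14). Tpm2 was lower in GRko/ko (-0.43) and higher in GRD+L/D+L (0.26), Tpm1 was higher in GRko/ko (0.24), and Tpm3 was not called. Of the calponin and transgelin relatives, Tagln2 was lower in GRL/L, GRD+L/D+L and GRko/ko (-0.21, -0.23 and -0.28), Cnn2 was lower in GRL/L and GRko/ko (-0.17 and -0.20) and Cnn3 was higher in GRD+L/D+L (0.11). Of the 8 cross-linkers and adhesion proteins, vinculin (Vcl, 0.22), palladin (Palld, 0.28) and Pdlim5 (0.25) were higher in GRD+L/D+L. In GRL/L the α-actinin Actn4 (-0.14), Flna (-0.20) and Pdlim5 (-0.14) were lower, and in GRko/ko Palld was lower (-0.18) and Pdlim7 higher (0.22). Actn1 and zyxin (Zyx) were called in no mutant.

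Other cell types moved with these vehicle comparisons, and their part in the differences was not tested. The 12 macrophage markers were all higher in GRD/D (summed 766 to 838 CPM), in GRL/L (928 to 1102 CPM against 516 to 546 CPM in GRwt/wt run 2) and in GRko/ko (3264 to 3630.0 CPM), and all lower in GRD+L/D+L (35.2 to 44.7 CPM), against 214 to 378 CPM in GRwt/wt run 1. The 5 mural markers summed to 557 to 797 CPM in GRD/D, 747 to 753 CPM in GRD+L/D+L and 665 to 717 CPM in GRko/ko. Of these 5, 0 were higher and 2 lower in GRD/D, 3 higher and 1 lower in GRD+L/D+L, and 2 higher and 2 lower in GRko/ko. In GRL/L 0 of the 5 were called, at a summed 186 to 207 CPM. The 7 cartilage markers, of which 5 were tested, summed to 179.9 to 559 CPM in GRko/ko (5 higher), 27.8 to 30.6 CPM in GRD+L/D+L (2 higher and 1 lower) and 20.2 to 30.9 CPM in GRD/D (0 called), against 19.0 to 21.1 CPM in GRwt/wt run 1. In GRL/L they summed to 106.5 to 109 CPM (3 higher) against 61.7 to 77.2 CPM in GRwt/wt run 2. Of the 7 skeletal muscle markers tested, 6 were higher by at least 2-fold in GRko/ko (median log2 difference 4.50) and Acta1 was lower, so that the sum of the 10 was 348 to 396 CPM there. It was 605 to 621 CPM in GRD/D and 645 to 665 CPM in GRD+L/D+L with 0 called, and 7.53 to 8.92 CPM in GRL/L with 2 lower. Myf5 and Ckm were at 0 in vehicle in all 4 groups of run 1, and Myod1 and Myh8 in GRwt/wt and GRD/D as well. The 10 fibroblast markers included 6 that were lower in GRD+L/D+L and 5 lower and 3 higher in GRko/ko, and none was at 0 in any group.

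The Dex responses address which of these genes the ligand moves within 5 h, and in which receptor genotypes. The study also reports weaker Dex binding in GRL/L and GRD+L/D+L, so dimer interface and ligand binding cannot be told apart there. In GRwt/wt, 10 of the 39 genes rose and 1 fell in run 1, where 7.74% of all genes rose and 6.2% fell. In run 2, 13 rose and 6 fell, where 14.9% rose and 16.7% fell. The 10 that rose in run 1 also rose in run 2, and Synpo2 fell in both. Over all genes, 5.63% rose in both runs and 4.41% fell in both. The median log2 fold change of the 39 genes was 0.08 in each run, against -0.0018 and -0.0114 over all genes. Without regard to sign, the median change was 0.09 in run 1 and 0.19 in run 2, against 0.13 and 0.16 over all genes. The genes that rose in both were Myocd, Lmod1, Fhl1, Fhl2, Mylk, Cnn3, Actn1, Actn4, Palld and Pdlim5.

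**Figure D3:**
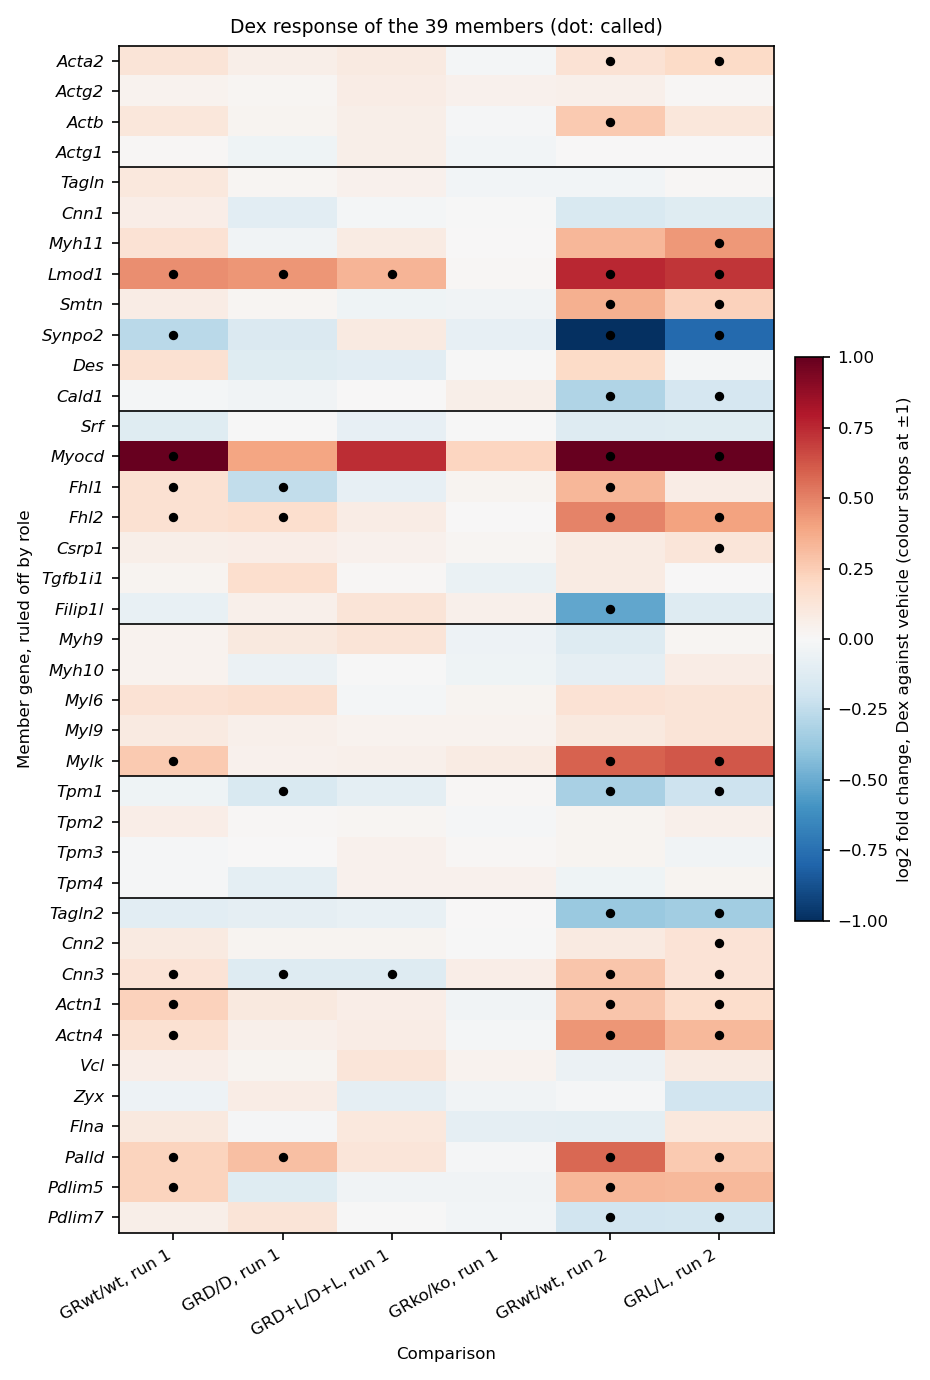
Log2 fold change of each of the 39 genes (down the axis, by role) on 5 h of Dex in each genotype and run (across), in colour that stops at 1 and -1. A dot shows a gene called at an adjusted p of at most 0.05. Myocd has a dot in both GRwt/wt sets and in GRL/L, Lmod1 has one everywhere but in GRko/ko, and GRko/ko has none.

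GRL/L was close to GRwt/wt run 2 in its counts, with 14 genes higher and 5 lower, where 8.79% and 10.4% of all genes were called. In GRD/D, 3 rose and 3 fell (5.63% and 6.24% of all genes). In GRD+L/D+L, 1 rose and 1 fell (3.08% and 1.92%). In GRko/ko, 0 of the 39 genes were called by edgeR, where 0% of all genes rose and 0% fell. There, 0 of the 39 and 859 of all genes had an unadjusted p under 0.05, and DESeq2 also called 0 of the 39. The responses of 17 genes were called in no genotype. These were Actg2, Actg1, Tagln, Cnn1, Des, Srf, Tgfb1i1, Myh9, Myh10, Myl6, Myl9, Tpm2, Tpm3, Tpm4, Vcl, Zyx and Flna.

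Myocd (chr11:65176561-65269989, minus strand, GRCm38), the coactivator that drives SRF target genes in smooth muscle, had the largest response of the 39. In GRwt/wt run 1 it was at 1.95, 1.51 and 1.95 CPM in vehicle and at 12.1, 11.02 and 11.2 CPM in Dex (log2 fold change 2.66 ± 0.23 (SE), adjusted p = 1.3e-11). In run 2 it went from 0.741, 0.912 and 1.86 CPM to 6.93, 12.5 and 11.1 CPM (3.13 ± 0.21, adjusted p = 8.5e-15). In both runs every Dex library was several times above every vehicle library. In GRL/L it went from 0.913, 0.664 and 0.858 CPM to 7.08, 4.56 and 5.58 CPM (2.82 ± 0.24, adjusted p = 5.8e-12).

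In the genotypes with the DNA-binding domain mutation the response of Myocd was not called. It was at 0.804, 1.15 and 1.73 CPM in vehicle and 1.78, 1.28 and 1.87 CPM in Dex in GRD/D, with overlapping groups (0.39 ± 0.34, adjusted p = 0.52). In GRD+L/D+L it was at 1.58, 1.47 and 1.56 CPM in vehicle and 2.61, 2.62 and 2.46 CPM in Dex, and these groups did not overlap although the test was not passed (0.74 ± 0.30, adjusted p = 0.21). In GRko/ko it was at 1.71, 1.36 and 1.45 CPM in vehicle and 1.86, 1.52 and 1.86 CPM in Dex (0.21 ± 0.32). The response differed from that of GRwt/wt run 1 by -2.27 ± 0.43 in GRD/D (adjusted p = 6.0e-04), -1.92 ± 0.40 in GRD+L/D+L (adjusted p = 0.0021) and -2.45 ± 0.41 in GRko/ko (adjusted p = 3.8e-05). For GRL/L the difference from GRwt/wt run 2 was -0.30 ± 0.36 (adjusted p = 0.81), which was not called.

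**Figure D4:**
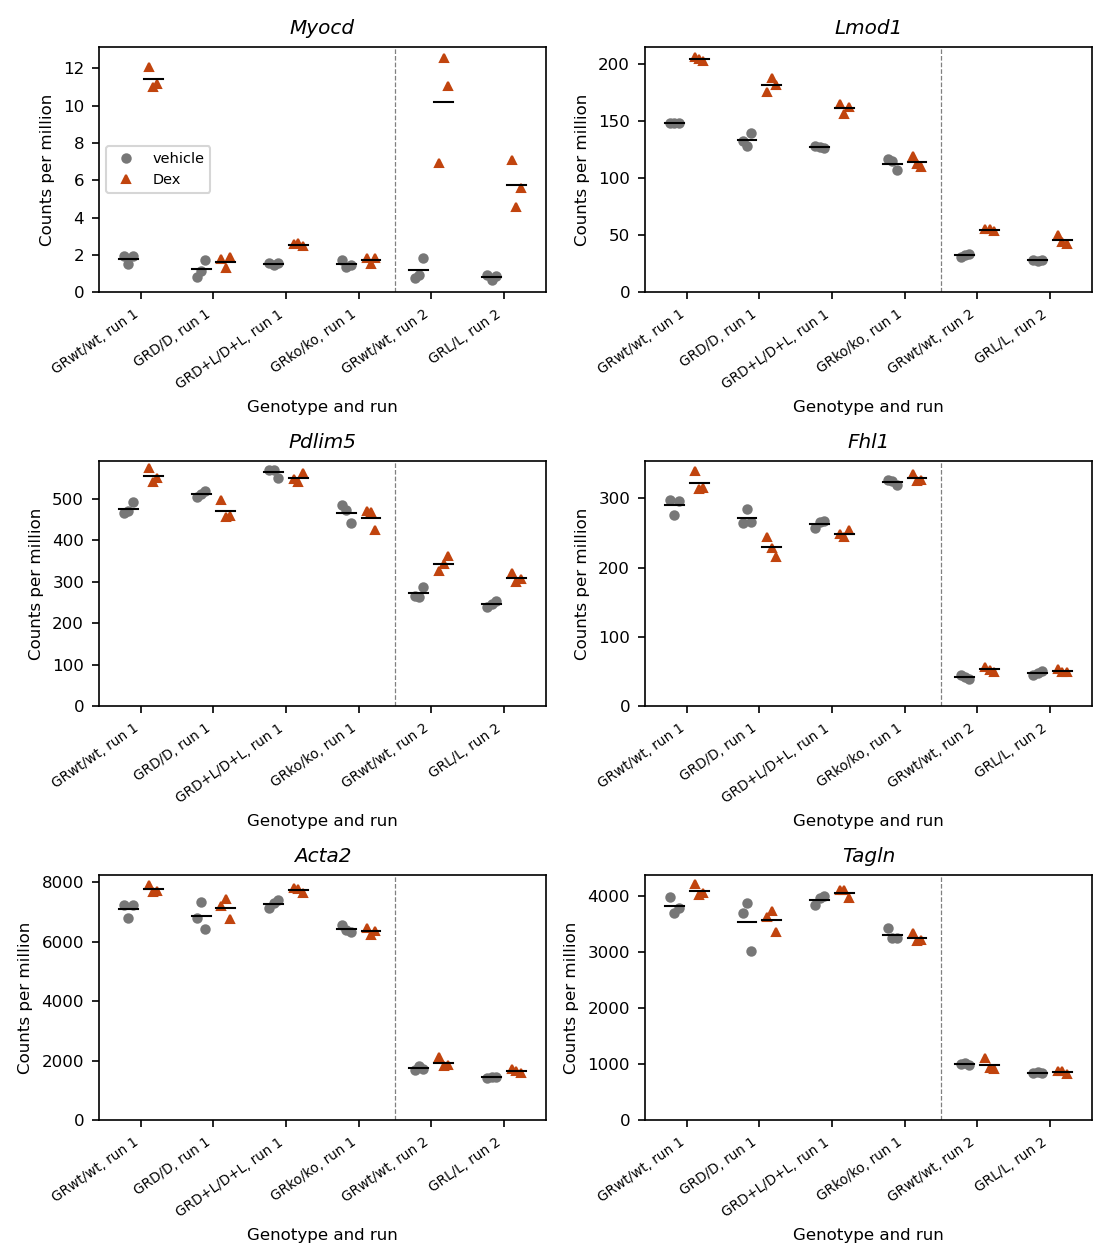
Level in every library, as CPM, of Myocd, Lmod1, Pdlim5, Fhl1, Acta2 and Tagln by genotype and treatment, with the group mean as a line and the dashed line between runs. The Dex libraries of Myocd lie far above vehicle in GRwt/wt and GRL/L, and the level of Acta2 and Tagln changes between the runs far more than with Dex.

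Acta2, the marker of the myofibroblast, changed little under Dex. It went from 7235, 6804 and 7239.6 CPM to 7927, 7664 and 7726 CPM in GRwt/wt run 1, with no overlap but not called (0.13 ± 0.05, adjusted p = 0.066). In run 2 it went from 1697, 1812 and 1735 CPM to 2133, 1819.98 and 1850.4 CPM (0.15 ± 0.05, adjusted p = 0.019), and 1 Dex library, replicate 4, stood above the others. That call was lost without this library or vehicle replicate 4, and when only the groups compared were fitted. In GRL/L it rose from 1439, 1464 and 1464 CPM to 1731, 1645 and 1603 CPM (0.19 ± 0.05, adjusted p = 0.0039). The Dex levels of 7197, 7434 and 6784 CPM in GRD/D, 7809, 7785 and 7651 CPM in GRD+L/D+L and 6479, 6220.3 and 6363 CPM in GRko/ko gave log2 fold changes of 0.06, 0.09 and -0.02, none called. The differences between genotypes in this response were not called either. Actb rose in run 2 alone (0.26 ± 0.05, adjusted p = 1.3e-04; 0.11 in run 1), and the difference between the runs was not called.

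Tagln, Cnn1 and Actg2 gave no call in any genotype. Tagln was at 4207, 4027 and 4057 CPM in Dex in GRwt/wt run 1 and at 1117, 925 and 909 CPM in run 2, where replicate 4 again stood above the other libraries. Its Dex levels were 3631, 3728 and 3354 CPM in GRD/D, 4102, 4102 and 3971 CPM in GRD+L/D+L, 3334, 3204 and 3209 CPM in GRko/ko and 875, 878 and 829.9 CPM in GRL/L, with log2 fold changes between -0.03 and 0.10 over all 6 comparisons. No change of Tagln with Dex was resolved. Cnn1 was at 316, 303 and 303 CPM in GRwt/wt run 1, 25.03, 19.2 and 20.1 CPM in run 2, 288, 295 and 269 CPM in GRD/D, 281, 274 and 278 CPM in GRD+L/D+L, 331, 322 and 329.8 CPM in GRko/ko and 22.1, 20.8 and 18.9 CPM in GRL/L (log2 fold changes -0.15 to 0.07). Actg2 was at 337, 327 and 351 CPM in GRwt/wt run 1, 31.4, 24.5 and 26.8 CPM in run 2, 385, 383 and 366 CPM in GRD/D, 275, 267 and 274 CPM in GRD+L/D+L, 254, 239 and 259 CPM in GRko/ko and 24.9, 22.1 and 25.1 CPM in GRL/L (log2 fold changes 0.01 to 0.07). No change of either gene with Dex was resolved.

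Myh11 rose in GRL/L, from 3.99, 4.27 and 3.20 CPM to 4.77, 4.39 and 6.22 CPM (0.43 ± 0.14, adjusted p = 0.021). The fold change was similar in GRwt/wt run 2 but varied between libraries, 2.69, 4.75 and 5.00 CPM in Dex (0.33 ± 0.15, adjusted p = 0.092). In run 1, where its level was far higher, the Dex libraries were at 76.01, 82.4 and 81.05 CPM in GRwt/wt, 57.2, 51.1 and 55.4 CPM in GRD/D, 109, 110.1 and 103 CPM in GRD+L/D+L and 79.6, 76.1 and 76.2 CPM in GRko/ko, with fold changes of 0.14, -0.04, 0.08 and 0.01. None of these was called. Srf was at 150.4, 143 and 152 CPM in GRwt/wt run 1, 47.2, 48.01 and 48.05 CPM in run 2, 162, 168 and 153 CPM in GRD/D, 164, 159 and 159 CPM in GRD+L/D+L, 133, 131 and 125 CPM in GRko/ko and 46.6, 42.5 and 43.1 CPM in GRL/L. Its fold changes were -0.13 or smaller in size and none was called, although all Dex libraries lay below all vehicle libraries in both GRwt/wt sets.

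Lmod1 rose in every genotype that has the receptor. In GRwt/wt it went from 148, 148 and 148 CPM to 206, 204 and 202 CPM in run 1 (0.46 ± 0.05, adjusted p = 1.0e-09) and from 30.8, 32.9 and 33.9 CPM to 55.8, 55.4 and 53.3 CPM in run 2 (0.75 ± 0.05, adjusted p = 1.3e-14). It rose to 176, 188 and 181 CPM in GRD/D (0.44, adjusted p = 7.1e-09), 50.6, 44.4 and 42.7 CPM in GRL/L (0.71, adjusted p = 1.9e-13) and 165, 157 and 163 CPM in GRD+L/D+L (0.34, adjusted p = 3.1e-06). In all of these every Dex library lay above every vehicle library. In GRko/ko the Dex libraries, 119.96, 112 and 110.2 CPM, overlapped vehicle (0.02). The response differed from GRwt/wt in GRko/ko (-0.45 ± 0.07, adjusted p = 7.5e-06). For GRD/D, GRD+L/D+L and GRL/L the differences were -0.02 ± 0.07, -0.12 ± 0.07 and -0.04 ± 0.07, none called.

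Pdlim5, a PDZ and LIM domain protein that binds α-actinin, was called in the same groups as Myocd, at a high level and with a small fold. It rose from 466, 471 and 492 CPM to 575, 542 and 549.8 CPM in GRwt/wt run 1 (0.22 ± 0.05, adjusted p = 6.3e-04), from 266, 264 and 289 CPM to 326, 343 and 362 CPM in run 2 (0.33) and from 241, 247 and 253 CPM to 323, 300.4 and 307 CPM in GRL/L (0.33). It was not called in GRD/D, 504, 513 and 518 to 498, 457 and 459 CPM, in GRD+L/D+L, 571, 571 and 552 to 549, 540.4 and 562 CPM, or in GRko/ko, 486, 474 and 442 to 471, 469.7 and 424 CPM. The vehicle libraries of GRD/D and GRD+L/D+L lay above those of GRwt/wt, a difference called in GRD+L/D+L but not in GRD/D. Their Dex levels did not rise from there. The response differed from GRwt/wt by -0.34 ± 0.07 in GRD/D (adjusted p = 8.5e-04), -0.26 ± 0.07 in GRD+L/D+L (adjusted p = 0.018) and -0.26 ± 0.07 in GRko/ko (adjusted p = 0.0079).

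Fhl1 and Cnn3 moved in opposite directions in GRwt/wt and GRD/D. Fhl1 rose from 298, 276 and 297 CPM to 339, 314 and 315 CPM in GRwt/wt run 1 (0.15 ± 0.05, adjusted p = 0.042) and fell from 264, 285 and 265 CPM to 244, 228 and 216 CPM in GRD/D (-0.24 ± 0.05, adjusted p = 0.0011). No libraries overlapped in either, and the difference was -0.40 ± 0.07 (adjusted p = 4.3e-04). Fhl1 also rose in GRwt/wt run 2, to 57.3, 52.9 and 49.9 CPM (0.33). The fold changes of 0.07 in GRL/L, -0.08 in GRD+L/D+L and 0.02 in GRko/ko were not called. Cnn3 rose from 536, 516 and 502 CPM to 566, 572 and 571 CPM in GRwt/wt run 1 (0.14 ± 0.04, adjusted p = 0.017). It fell from 556, 581 and 532 CPM to 489, 515 and 527 CPM in GRD/D (-0.13 ± 0.04, adjusted p = 0.037) and from 567, 568 and 547 CPM to 506, 530.04 and 498 CPM in GRD+L/D+L (-0.13 ± 0.04, adjusted p = 0.0495). The Dex libraries lay wholly on one side of vehicle in all 3 genotypes. The response differed from GRwt/wt by -0.26 ± 0.06 in GRD/D and -0.27 ± 0.06 in GRD+L/D+L (adjusted p = 0.0033 and 0.0025), the former not called when only the groups compared were fitted. The falls of Cnn3 in GRD/D and GRD+L/D+L were each lost in several other fits, and 16.4% of its exonic windows occur in other genes.

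Among the regulators, Fhl2 rose in both GRwt/wt runs, from 165, 175 and 173 CPM to 189, 190.1 and 191 CPM (0.15 ± 0.05) and from 117, 125 and 115 CPM to 183, 159.5 and 160.3 CPM (0.49 ± 0.04, adjusted p = 2.1e-11). It also rose in GRD/D (0.16) and GRL/L (0.40), while GRD+L/D+L (0.07) and GRko/ko (0.01) were not called. Csrp1 rose in GRL/L alone (0.12; 0.08 in GRwt/wt run 2, not called), and that difference was not called. Filip1l fell in GRwt/wt run 2 from 113, 121 and 125 CPM to 77.8, 85.1 and 88.7 CPM (-0.52 ± 0.05) and was not called in GRL/L, at 106, 99.5 and 104 CPM and 94.3, 94.8 and 94.7 CPM (-0.13 ± 0.05). This was the 1 gene whose response differed between GRL/L and GRwt/wt (0.39 ± 0.07, adjusted p = 8.8e-04). The study's design fitted with edgeR, which pools the GRwt/wt sets of the runs, gave no call there. In GRwt/wt run 1 the fold change of Filip1l was -0.07, not called.

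Mylk rose in both GRwt/wt sets, from 20.05, 21.03 and 19.01 CPM to 24.5, 24.2 and 23.1 CPM in run 1 (0.26 ± 0.08) and from 40.4, 37.7 and 35.5 CPM to 53.9, 59.7 and 57.3 CPM in run 2 (0.59 ± 0.06). In GRL/L it went from 38.8, 41.6 and 38.3 CPM to 61.4, 57.1 and 63.6 CPM (0.62 ± 0.06, adjusted p = 1.3e-10). It was not called in GRD/D, GRD+L/D+L or GRko/ko, and the tests of the difference from GRwt/wt called none of these. The other 4 myosin genes gave no call. Tpm1 fell in GRD/D, from 2461, 2439 and 2307 CPM to 2183, 2176 and 2116 CPM (-0.15 ± 0.04, adjusted p = 0.0028), in GRwt/wt run 2 (-0.32) and in GRL/L (-0.20). The calls of Tpm1, Fhl1, Fhl2, Palld and Cnn3 in GRD/D were lost when only the groups compared were fitted, which left 1 call, that of Lmod1.

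Of the α-actinins, Actn1 rose in GRwt/wt run 1, run 2 and GRL/L (0.23, 0.28 and 0.18), as did Actn4 (0.15, 0.44 and 0.32). Palld, which scaffolds actin bundles, rose in these 3 and in GRD/D (0.23, 0.57, 0.26 and 0.30). The Actn1 response was smaller in GRko/ko than in GRwt/wt (-0.27 ± 0.08, adjusted p = 0.038). Smtn rose in GRwt/wt run 2 (0.36) and GRL/L (0.23), and Cnn2 in GRL/L (0.13). The genes that fell in both GRwt/wt run 2 and GRL/L were Synpo2 (-1.07 and -0.78), Cald1 (-0.30 and -0.16), Tpm1, Tagln2 (-0.37 and -0.34) and Pdlim7 (-0.19 and -0.19). Synpo2, an actin-bundling Z-disc protein, fell from 5.01, 5.94 and 5.79 CPM to 2.49, 2.28 and 3.16 CPM in GRwt/wt run 2, where all Dex libraries lay below all vehicle libraries, and from 15.2, 16.9 and 17.3 CPM to 13.1, 12.8 and 15.04 CPM in run 1 (-0.27 ± 0.09, adjusted p = 0.042). DESeq2 did not call the fall in run 1.

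The test of the difference in response called 4 of the 39 genes in GRD/D, all with a lower response, where 3.29% of all genes were called. In GRD+L/D+L it called 3, all lower (3.23%), in GRko/ko 4, all lower (8.48%), and in GRL/L 1, higher (1.85%). Myocd and Pdlim5 were called in GRD/D, GRD+L/D+L and GRko/ko, which share the GRwt/wt libraries of run 1. Between the GRwt/wt runs themselves, the responses of 12 genes differed, 6 higher and 6 lower in run 2 (7.09% of all genes). Fhl2, Actn4, Lmod1, Mylk, Palld and Smtn had the higher response in run 2, and Filip1l, Tpm1, Synpo2, Cald1, Tagln2 and Pdlim7 the lower one. All 6 of the former were higher in Dex in both runs by value, and 6 of these 12 genes were called in both runs, namely Fhl2, Actn4, Lmod1, Mylk, Palld and Synpo2. The differences of Smtn, Tagln2 and Pdlim7 were not called when only the groups compared were fitted, nor that of Mylk with no filter on low counts.

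Leaving out 1 library at a time bore mainly on small changes. Of the 11 calls in the Dex response of GRwt/wt run 1, 4 were made whichever library was left out, and the count fell to 5 without Dex replicate 2, 6 without vehicle replicate 2 and 7 without Dex replicate 1 or vehicle replicate 3. The 7 calls lost at least once were those of Actn4, Cnn3, Fhl1, Fhl2, Mylk, Palld and Synpo2. In GRwt/wt run 2, 18 of 19 calls were made in every case, and in GRL/L 12 of 19, where the calls lost at least once were those of Myh11, Actn1, Cnn2, Cnn3, Csrp1, Palld and Pdlim7. In GRD/D the Dex count rose from 6 to 10 without vehicle replicate 3. In GRD+L/D+L it fell from 2 to 1 without any 1 of the libraries but Dex replicate 2. The vehicle count of GRD/D, 6, was 10 without GRD/D replicate 3, 3 without GRD/D replicate 1 or GRwt/wt replicate 1 or 2, and 2 without GRwt/wt replicate 3. When only the groups compared were fitted it was 2, with Des and Myh11 left. The vehicle count of GRL/L, 14, was 9 without GRL/L replicate 1 or 2 and 8 without GRwt/wt replicate 5 or 6. The study's design fitted with edgeR did not call Fhl1, Filip1l, Tagln2 and Flna there. The difference in response of GRko/ko was called for 2 genes instead of 4 without its Dex replicate 3, and that of GRL/L for 2 instead of 1 without GRwt/wt Dex replicate 6 or vehicle replicate 4 or 6. No value changed its sign among the called ones.

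Genes of the same pathway outside the 39 were described from lists fixed with them. Of 15 further MRTF-SRF targets, 8 rose and 0 fell in GRwt/wt run 1, and 10 rose and 4 fell in run 2. In GRL/L 8 rose and 1 fell, in GRD/D 5 rose, in GRD+L/D+L 4 rose and in GRko/ko none was called. Of all genes tested, 7.74% rose and 6.2% fell in GRwt/wt run 1, 14.9% and 16.7% in run 2, 8.79% and 10.4% in GRL/L, 5.63% and 6.24% in GRD/D and 3.08% and 1.92% in GRD+L/D+L. Those that rose in both GRwt/wt runs were the matricellular proteins Ccn1 (0.39 in run 1 and 0.81 in run 2) and Ccn2 (0.56 and 1.39), the LIM protein Csrp2 (0.72 and 0.53), gelsolin (Gsn, 0.29 and 0.69), the fibronectin receptor subunit Itga5 (0.54 and 0.83), Nexn (0.20 and 0.43) and supervillin (Svil, 0.21 and 0.66). In vehicle, 13 of the 15 were lower and 2 higher in run 2 than in run 1, beside 32.2% and 40.2% of all genes, with a median log2 difference of -1.13.

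Of the 7 SRF cofactors and regulators tested, Mrtfa rose in both GRwt/wt runs (0.38 and 0.30) and the ETS-family cofactor Elk3 fell in both (-0.32 and -0.48). Over the list, 1 rose and 1 fell in run 1, and 1 rose and 4 fell in run 2, counts too small to set against the shares of all genes given above.

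Of 16 focal adhesion genes, 4 rose and 3 fell in GRwt/wt run 1, and 4 rose and 4 fell in run 2, where the shares of all genes were 7.74% and 6.2%, and 14.9% and 16.7%. The integrin subunit Itgb3 had the largest change of those called in both runs (-1.16 and -1.46), and it fell in every genotype but GRko/ko (-0.83 in GRD/D, -1.07 in GRL/L, -0.59 in GRD+L/D+L and 0.06 in GRko/ko). Itgb5 (0.29 and 0.17) and the adhesion scaffold Nedd9 (0.65 and 0.57) rose, and talin 2 (Tln2, -0.26 and -0.72) fell. In GRko/ko 0 genes of these 3 lists were called by edgeR.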

How the data were processed

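RNA was sequenced from MEFs of 5 genotypes, each given vehicle or Dex, with 3 libraries per group and 12 groups. The authors deposited raw counts per gene. Per the labels and the study's methods, reads were mapped to mm10 with HISAT2 (2.1.0) and counted with featureCounts (2.0.0), without reads that map to several places. The strand setting is not given in the sources used here. From these counts, genes were filtered with edgeR's filterByExpr (15489 left, with 99.93% of counts), scaled by TMM and fitted with edgeR 4.0.16 (R 4.3.3) by genotype, treatment and run over all 36 libraries. Each Dex response, each vehicle difference within a run and each difference in response was tested by the quasi-likelihood F test, with Benjamini-Hochberg adjustment over all genes. The study's design, with run as an additive term, was an alternative, because it cannot give run-specific responses. It was fitted here with edgeR, whereas the study used DESeq2. The study's log2 fold limit of 1 was a further alternative. Other alternatives were RLE scaling, DESeq2 1.42.0, other count filters, fits of only the groups compared, replicate number as a block, and leaving out each library. Values in every library were given for Acta2, Actg2, Tagln, Cnn1, Myh11, Myocd and Srf and for the 3 called members with the smallest adjusted p per comparison; Synpo2, Filip1l and Cnn3 values beyond this rule were added after the values were seen. The 39 genes and all lists were chosen with earlier results of these data known. One further gene list is not reported here. Cultures come from separate mice per the methods, which the counts cannot check. The biological coefficient of variation was 0.0513. The 36 pairs of libraries within groups differed by 1.41 to 8.35 times counting noise, so none was a copy. The test was also checked on simulated counts, with independent libraries and planted log2 fold changes of at least 1 in size. That check does not bear on smaller changes or on libraries that share a culture.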

Additional observations from a re-analysis of the deposited data

Results flagged for a closer look

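The difference in Dex response between a mutant and GRwt/wt of the same run, or between the GRwt/wt runs, passed the test in 24 cases, which is why these are listed here. Each value is the log2 response of the first group minus that of GRwt/wt, and no explanation was tested. In GRD/D the response was lower than in GRwt/wt for Myocd (-2.27), Fhl1 (-0.40), Pdlim5 (-0.34) and Cnn3 (-0.26). Fhl1 and Cnn3 rose in GRwt/wt and fell in GRD/D, whereas Myocd and Pdlim5 rose in GRwt/wt and were not called in GRD/D. In GRD+L/D+L it was lower for Myocd (-1.92), Cnn3 (-0.27) and Pdlim5 (-0.26). In GRko/ko it was lower for Myocd (-2.45), Lmod1 (-0.45), Actn1 (-0.27) and Pdlim5 (-0.26). In GRL/L it was higher for Filip1l (0.39). Between the GRwt/wt sets, run 2 had the higher response of Palld (0.35), Fhl2 (0.34), Mylk (0.33), Lmod1 (0.29), Actn4 (0.29) and Smtn (0.28). It had the lower response of Synpo2 (-0.80), Filip1l (-0.44), Tpm1 (-0.28), Cald1 (-0.28), Tagln2 (-0.27) and Pdlim7 (-0.25). GRwt/wt of run 2 also differed from that of run 1 in sex pattern and in the vehicle level of 37 of the 39 genes, and the part of either in these differences was not tested. Groups of 3 libraries were not tested for libraries that stand apart.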

How the results depend on the processing

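The counts given here are those of the 39 genes called under each alternative. Over 1173 values of called genes under the alternatives other than single libraries and the fold limit, 1120 stayed called in the same direction, 53 lost the call and 0 changed sign. With a log2 fold change of at least 1 in size also required, the Dex calls were 1 in GRwt/wt run 1, 2 in run 2, 0 in GRD/D, 1 in GRL/L and 0 in GRD+L/D+L, and the vehicle calls 0 in GRD/D, 0 in GRL/L, 2 in GRD+L/D+L, 1 in GRko/ko and 22 between runs. The differences in response were then 1 in GRD/D, 0 in GRL/L, 1 in GRD+L/D+L, 1 in GRko/ko and 0 between runs. The study's design fitted with edgeR, which pools GRwt/wt over the runs, called 23 in the response of GRwt/wt run 1 and 1 in GRD+L/D+L. Its differences in response were 7 in GRD/D, 0 in GRL/L, 10 in GRD+L/D+L and 16 in GRko/ko. Fitting only the groups compared called 1 in the response of GRD/D, 10 in that of GRD+L/D+L, 2 in GRD/D vehicle and 7 differences in GRD+L/D+L. With no filter on low counts, 1 was called in the response of GRD+L/D+L and 2 in the difference of GRL/L. The cause was not tested. Without 1 library, the Dex counts were 5 to 9 in GRwt/wt run 1, 19 to 23 in run 2, 4 to 10 in GRD/D, 15 to 16 in GRL/L, 1 to 2 in GRD+L/D+L and 0 to 0 in GRko/ko. The vehicle counts were 2 to 10, 8 to 12, 14 to 17 and 24 to 27 in GRD/D, GRL/L, GRD+L/D+L and GRko/ko and 37 to 38 between runs. The differences were 4 to 4, 1 to 2, 2 to 3 and 2 to 5, and 8 to 12 between runs.

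Neither the labels nor the methods say that a replicate number marks 1 culture, and the data gave no single answer on pairing. Same-numbered vehicle and Dex libraries had correlations of -0.234 to 0.306 in their deviations from the group means, with 4 of 18 pairs over 0.1 and 7 of 18 best with their own number. The 3 GRko/ko pairs were all over 0.1 (0.145, 0.144 and 0.306), and the 3 pairs of GRko/ko and the 3 of GRD+L/D+L were each best with their own number. With replicate number as a block, the response of GRko/ko still had 0 calls, that of GRD+L/D+L had 1 in place of 2 (Cnn3 was lost), and the difference between runs had 9. The vehicle differences could not be fitted with the block, since the groups compared come from different mice. The limits are those of 3 libraries per group, of sex and genotype that cannot be told apart in 2 mutants, of a run that cannot be told apart from culture, and of the low counts of Myocd. In GRko/ko, strain may also not be separable from genotype. The part of other cell types in the vehicle differences was not tested.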

Other observations

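The skeletal muscle list, which was checked as a marker list, differed between the runs in both directions: of its 7 genes tested, 6 were higher in run 2 by at least 2-fold and 1 was lower (median log2 difference 3.56). In GRwt/wt vehicle its 10 genes summed to 648 to 756 CPM in run 1 and 12.1 to 13.7 CPM in run 2, and the sum fell because nearly all of the former was skeletal α-actin (Acta1). Acta1 was chosen after its values were seen. It is a further sarcomeric actin and SRF target, and it was lower in run 2 by a log2 difference of -6.63 ± 0.12 (adjusted p = 4.7e-32). The cardiac actin Actc1 (5.70 ± 0.80, adjusted p = 7.7e-08), the slow troponin I Tnni1 (2.74 ± 0.58) and the slow troponin T Tnnt1 (1.04 ± 0.45) were higher in run 2, as were Myh3 (6.01), Myh8 (6.76) and Myog (3.56). All of these were at low levels, since the 10 genes together reached no more than 13.7 CPM in run 2. The size of the large folds is therefore uncertain. Myod1, Myf5, Myh8 and Ckm were at 0 in run 1 vehicle libraries of GRwt/wt.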
